A study of Zea mays with 6 samples.

Results

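Glutathione S-transferases (GSTs) form a large enzyme family in maize, and 31 of the 1108 genes that could be named on a maize expression array belonged to it. The rule for members used the name alone. A gene counted if its symbol or a RefSeq synonym was gst followed by a number and a probe set was paired with that gene only. The members were chosen with earlier results of these data known. A probe set is the group of short array probes that reads one transcript, and a gene with several was represented by the one with the highest mean over the 6 arrays. The members had 35 probe sets before that choice, and 29 of the 31 genes had a single one. All 31 were found in the RefSeq table and none was filtered out. The name gst4 stands among the synonyms of 2 members, which are called here gst2 (NCBI gene 542311, also GSTIV) and GST3 (NCBI gene 541990).

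The arrays read total RNA of leaf 3 of the maize line A661, grown for 3 weeks at 15 °C and then for 1 week at 25 °C. By then that leaf carried chlorophyll only in its lower, proximal section (CC), while the distal section (CL) had none, and the 2 cm of each that bordered the transition were taken. There were 3 biological replicates of CL and 3 of CC, and CC was the study's control. Line, leaf, light (228 µmol per m2 and s, 14 h light and 10 h dark) and both temperature periods are shared by all samples. CL is always the distal section, so a lack of chlorophyll cannot be told apart from a more distal position, nor can fewer cells of one type be told apart from less RNA per cell, since whole tissue was extracted.

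GSTs join the tripeptide glutathione to reactive or foreign molecules, among them herbicides and products of lipid oxidation, and in plants the conjugates are carried into the vacuole by ABC transporters of the MRP type. Some members also act as glutathione peroxidases or carry flavonoids. Maize GSTs were first known for herbicide tolerance: GST I and GST III are present without treatment, and GST IV is induced by herbicide safeners. Many plant GST genes are induced by stress or hormones and lie side by side in the genome as copies.

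The family changed in both directions, and its large changes were rises. At a limma adjusted p under 0.05 over all 17555 probe sets, 11 of the 31 members (35.5%) rose in CL, 7 (22.6%) fell and 13 did not pass. On the whole array 15.9% of probe sets rose and 15.2% fell, and among the 1108 named genes 18.7% rose and 19.9% fell. In either direction 58.1% of members passed, against 38.6% of named genes and 31.1% of probe sets. A rise of at least 2-fold was called for 6 members (19.4%) and a fall of that size for 0, beside 3.11% and 2.56% of all probe sets and 5.96% and 5.32% of named genes. The smallest of the 7 falls was 0.33 and the greatest 0.80 on the log2 scale. The median log2 change (CL minus CC) was 0.22 over the members, -0.08 over the named genes and -0.05 over all probe sets. In 12 members (38.7%) every CL array lay above every CC array, against 23.7% of named genes and 22.9% of probe sets. In 8 members (25.8%) every CL array lay below, against 32% of named genes and 26.8% of probe sets. Together 64.5% of members did not overlap, against 55.8% of named genes and 49.6% of probe sets.

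**Figure D1:**
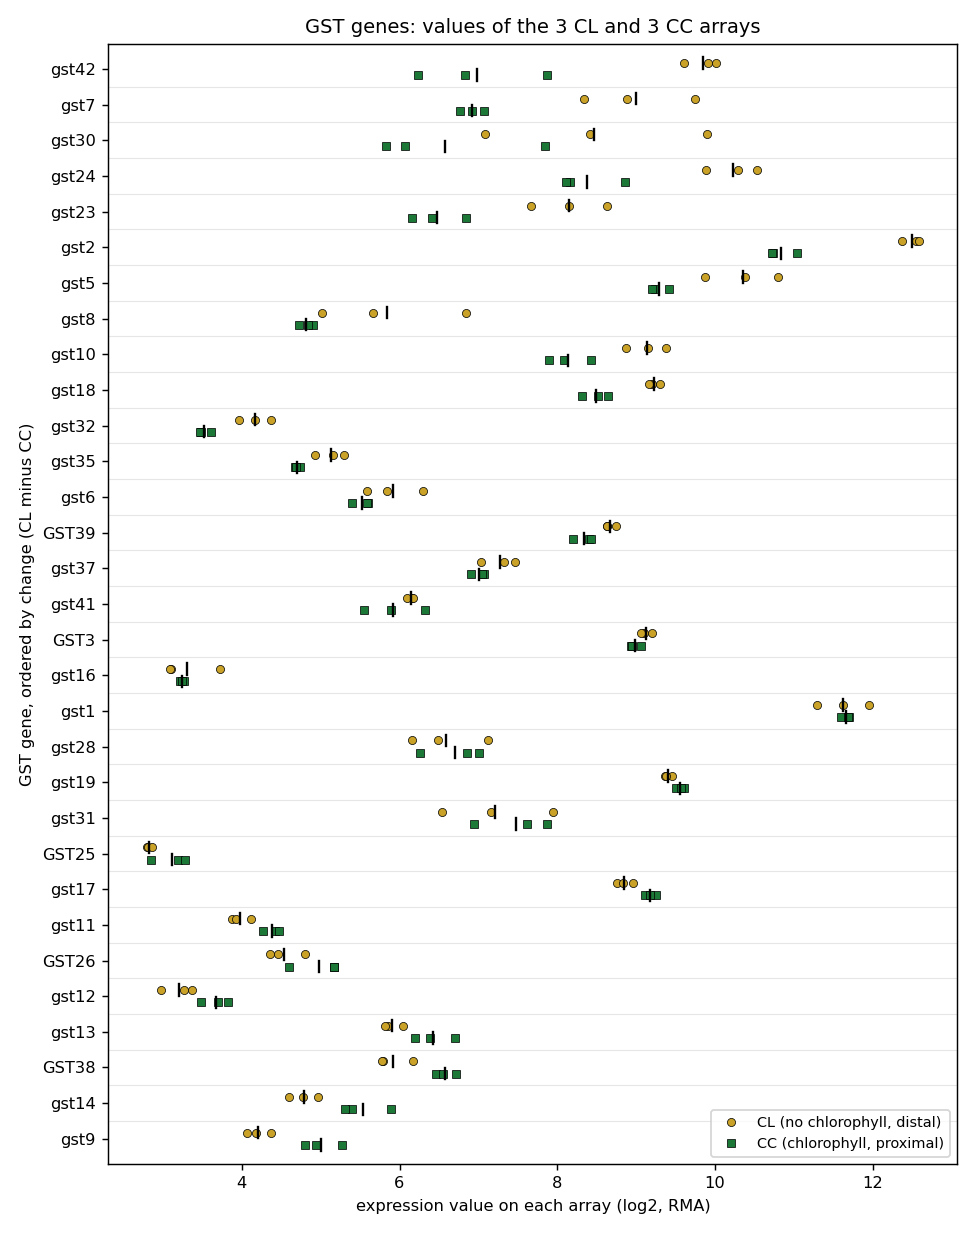
Expression values (log2, RMA) of the 31 GST genes on each array, with CL as circles above CC as squares and a bar at each mean; genes are ordered by their change. The 6 members that rose at least 2-fold, gst42, gst7, gst24, gst23, gst2 and gst5, have all CL arrays to the right of all CC arrays, while the circles and squares of gst30 overlap.

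The greatest rise in the family was that of gst42 (NCBI gene 541850). Its log2 values were 9.61, 9.91 and 10.01 on the CL arrays, against 7.87, 6.23 and 6.83 on the CC arrays. The CL arrays lay close together and the CC arrays were spread out, with CC replicate 1 nearest to CL. CL averaged 9.84 ± 0.21, against 6.98 ± 0.83 for CC (SD over 3 arrays). The log2 change was 2.86 (SE 0.38), or 7.28-fold, with a limma adjusted p of 0.00386. That was the 9th largest rise among the 1108 named genes. It was 2.49 to 3.31 when any 1 array was left out.

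For gst7 (NCBI gene 542587) the CL arrays read 9.75, 8.34 and 8.89, against 6.92, 7.08 and 6.77 on the CC arrays. Here the spread was in CL, where replicate 1 was high and replicate 2 low, and the CC arrays stood together. The log2 change was 2.07 (SE 0.33, limma adjusted p = 0.00589), a 4.20-fold rise. In gst24 (NCBI gene 541837) the values were 10.29, 9.88 and 10.53 in CL, against 8.86, 8.16 and 8.10 in CC, with CC replicate 1 again the highest of its section. Its log2 change was 1.86 (SE 0.24, limma adjusted p = 0.00376).

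The values of gst23 (NCBI gene 541845) were 8.63, 7.67 and 8.15 in CL, against 6.16, 6.85 and 6.41 in CC. CL replicate 2, the lowest of its section, still lay above every CC array, and the log2 change was 1.68 (SE 0.27, limma adjusted p = 0.00621).

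The safener-inducible form, gst2, had a bright probe set and less spread than the median of the family. It read 12.55, 12.37 and 12.58 on the CL arrays, against 11.03, 10.74 and 10.72 on the CC arrays. Its mean signal of 11.66 over the 6 arrays was the highest of the family. The sections averaged 12.50 ± 0.12 for CL and 10.83 ± 0.18 for CC (SD over 3 arrays). Pooled over CL and CC, the SD was 0.15, against a median of 0.24 over the members and 0.14 over all probe sets. The log2 change of 1.67 (SE 0.12), or 3.18-fold, had the smallest adjusted p of the members (limma, 0.00102).

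The last of the 6 was gst5 (NCBI gene 542734), at 10.79, 9.87 and 10.38 in CL, against 9.24, 9.41 and 9.20 in CC. Its log2 change was 1.06 (SE 0.22, limma adjusted p = 0.0133). When CL replicate 3 was left out, the adjusted p was 0.0535. The change was 0.84 without CL replicate 1, which at 10.79 was the highest of the section.

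The other 5 rises were under 2-fold. The largest of these was gst10 (NCBI gene 541828), at 8.87, 9.37 and 9.15 in CL, against 8.43, 7.89 and 8.09 in CC, with a log2 change of 0.995 (SE 0.18, limma adjusted p = 0.00849). In gst18 (NCBI gene 541833) the CL arrays read 9.19, 9.17 and 9.30, against 8.65, 8.51 and 8.31 in CC, and the log2 change was 0.73 (SE 0.11, limma adjusted p = 0.00506). Both had bright probe sets and sections that did not overlap. The log2 changes of gst32, gst35 and GST39 were 0.65 (SE 0.12), 0.43 (SE 0.11) and 0.33 (SE 0.10). Of these, gst32 lay at the dim end of the array, with 4.37, 3.97 and 4.17 in CL, against 3.48, 3.47 and 3.61 in CC.

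**Figure D2:**
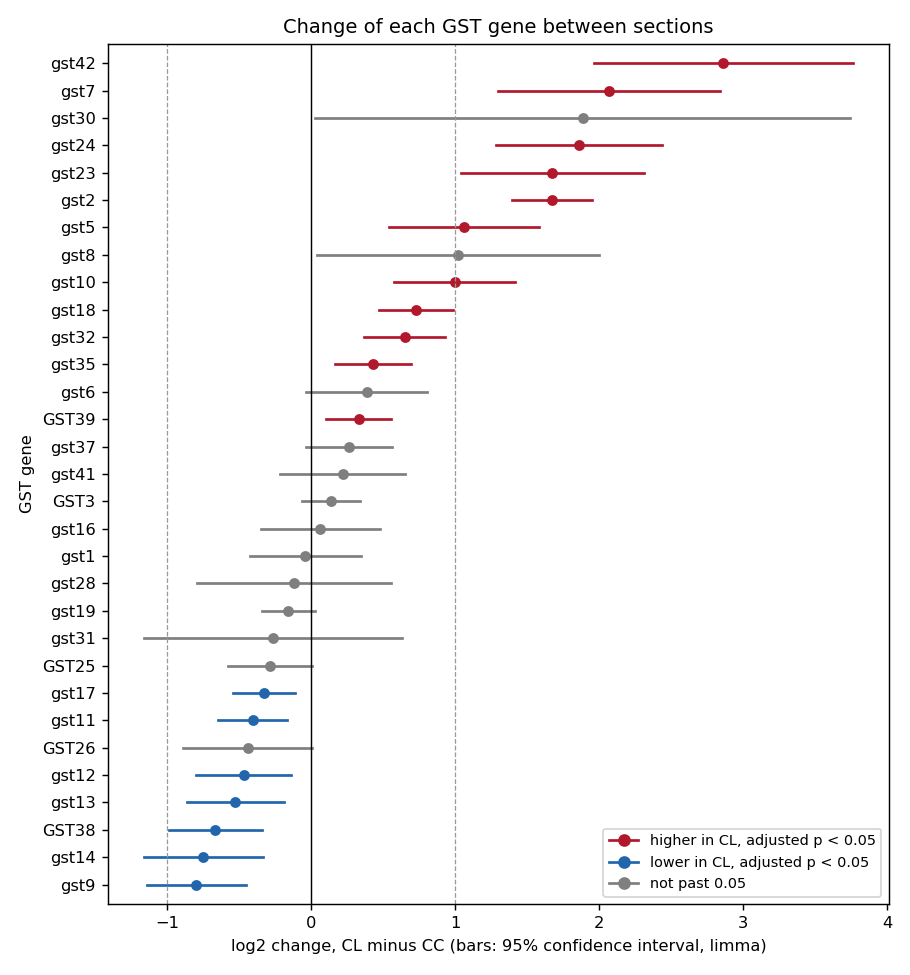
The log2 change (CL minus CC) of each GST gene with its 95% confidence interval from limma; red points were called higher in CL, blue points lower and grey points did not pass 0.05, and dashed lines mark a 2-fold change. The called rises run up to 2.86 (gst42), whereas the called falls end at -0.80 (gst9).

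The 7 falls were those of gst9, gst14, GST38, gst13, gst12, gst11 and gst17. In gst9 (NCBI gene 542629) the CL arrays read 4.06, 4.18 and 4.37, against 5.27, 4.80 and 4.94 in CC, a log2 change of -0.80 (SE 0.15, limma adjusted p = 0.00891). It had the smallest adjusted p of the falls, and the sections lay clearly apart although both were dim. In gst14 (NCBI gene 541832) the values were 4.78, 4.60 and 4.97 in CL, against 5.40, 5.32 and 5.89 in CC, and the log2 change was -0.75 (SE 0.17, limma adjusted p = 0.0192).

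GST38 (NCBI gene 541847) read 6.17, 5.79 and 5.78 in CL, against 6.46, 6.55 and 6.72 in CC. It fell by 0.67 on the log2 scale (SE 0.14, limma adjusted p = 0.0126). The fall of gst13 (NCBI gene 541831) was seen on both of its probe sets. The brighter one changed by -0.53 (SE 0.14) and the dimmer one, whose mean in CL was 2.32, by -0.28 (SE 0.08), with limma adjusted p of 0.0314 and 0.0409. The brighter probe set read 6.04, 5.85 and 5.81 in CL, against 6.20, 6.39 and 6.70 in CC.

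In gst12 (NCBI gene 541830) the CL arrays read 3.27, 2.97 and 3.37, against 3.49, 3.70 and 3.83 in CC, and the log2 change was -0.47 (SE 0.14, limma adjusted p = 0.041). For gst11 (NCBI gene 541829) they read 4.12, 3.88 and 3.93, against 4.42, 4.27 and 4.47 in CC, with a log2 change of -0.41 (SE 0.10, limma adjusted p = 0.0245). Neither gene overlapped between sections, although both had narrow gaps. The change of gst17 was -0.33 (SE 0.09, limma adjusted p = 0.0344). Only gst17 among the 7 had a 6-array mean above the median of all probe sets, averaging 8.85 ± 0.10 for CL and 9.18 ± 0.07 for CC (SD over 3 arrays).

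Leaving out any single array kept the calls of 9 of the 18 members: gst42, gst7, gst24, gst23, gst2, gst10, gst18 and gst32 among the rises and gst9 among the falls. For the others the adjusted p passed 0.05 in at least 1 of these smaller fits, at changes that kept their direction. Besides gst5, the call of GST39 was lost without any one of the 6 arrays (changes between 0.26 and 0.37), and that of gst35 without CL replicate 2 or 3 or CC replicate 2 or 3 (0.34 to 0.53). Among the falls, GST38 was not called without CL replicate 3 (adjusted p = 0.0558) and gst14 not without CL replicate 2 (adjusted p = 0.0647). For gst17, gst11, gst12 and gst13 the omission of any of 4 or 5 of the arrays gave limma adjusted p of 0.0523 to 0.113. The changes of these 4 in all fits with 1 array left out lay between -0.38 and -0.28 for gst17, -0.48 and -0.36 for gst11, -0.56 and -0.36 for gst12, and -0.64 and -0.39 for gst13. The count of falls was 2 without CL replicate 2 or CL replicate 3, 3 without CC replicate 3 and 4 without CC replicate 2, whereas the count of rises was 8 to 10. All 18 called members kept their direction in these fits.

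Of the 13 members that did not pass, 10 had a 95% confidence interval that lay within 1 of 0 on the log2 scale, so a 2-fold change was outside it. Among these were the classical forms present without treatment. GST I, encoded by gst1 (NCBI gene 542366), read 11.95, 11.29 and 11.62 in CL, against 11.60, 11.70 and 11.69 in CC. CL replicates 1 and 2 lay on either side of all CC arrays. The log2 change was -0.04 with an interval of -0.43 to 0.34. GST3 read 9.10, 9.06 and 9.19 in CL, against 8.94, 8.95 and 9.06 in CC, and its log2 change of 0.14 had an interval of -0.06 to 0.34. The others were gst6, gst37, gst41, gst16, gst28, gst19, GST25 and GST26, with log2 changes between -0.44 (GST26) and 0.38 (gst6). Of these gst19 had sections that did not overlap, at 9.46, 9.36 and 9.38 in CL, against 9.60, 9.51 and 9.56 in CC, yet its change of -0.16 did not pass (limma adjusted p = 0.164). GST25 (NCBI gene 541838) was the dimmest member, with a mean of 2.97 over the 6 arrays and a log2 change of -0.28 (interval -0.58 to 0.01).

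The intervals of the remaining 3 reached past a 2-fold change. In gst30 (NCBI gene 541841) the values were 9.90, 7.08 and 8.42 in CL, against 5.82, 7.85 and 6.07 in CC, so CC replicate 2 lay above CL replicate 2. The log2 change of 1.89 had an interval of 0.03 to 3.75 and a limma adjusted p of 0.108. The CL arrays of gst8 (NCBI gene 542740) read 6.84, 5.02 and 5.66, against 4.72, 4.90 and 4.84 in CC. Its sections did not overlap, but CL replicate 2 was only just above CC, and the change of 1.02 (interval 0.043 to 1.996) had a limma adjusted p of 0.1. Without that array the change was 1.43, with an adjusted p of 0.0366. In gst31 (NCBI gene 541842), CL replicate 1 at 7.95 and CL replicate 2 at 6.54 enclosed all CC arrays (6.95, 7.87 and 7.62). Its 4 probe sets had log2 changes between -0.32 and -0.15, and none of them passed.

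The spread between replicates was wider in the family than on the array. The median SD within a section (pooled over CL and CC) was 0.24 over the members, against 0.15 over the named genes and 0.14 over all probe sets. The greatest SDs were those of gst30 at 1.27, gst8 at 0.66 and gst42 at 0.61, above 99.9%, 98.4% and 97.9% of probe sets. CL was the more variable section in 19 of the 31 members (61.3%), against 48.2% of named genes. The arrays of CL fell in the order replicate 1 highest and replicate 2 lowest in 14 members (45.2%), against 28.4% of named genes and 21.8% of all probe sets. This order held for gst7, gst23 and gst5 but not for gst42, gst24 or gst2, where CL replicate 3 was highest. The members share the 6 arrays, so these shares describe 3 CL samples and no test was run on them.

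**Figure D3:**
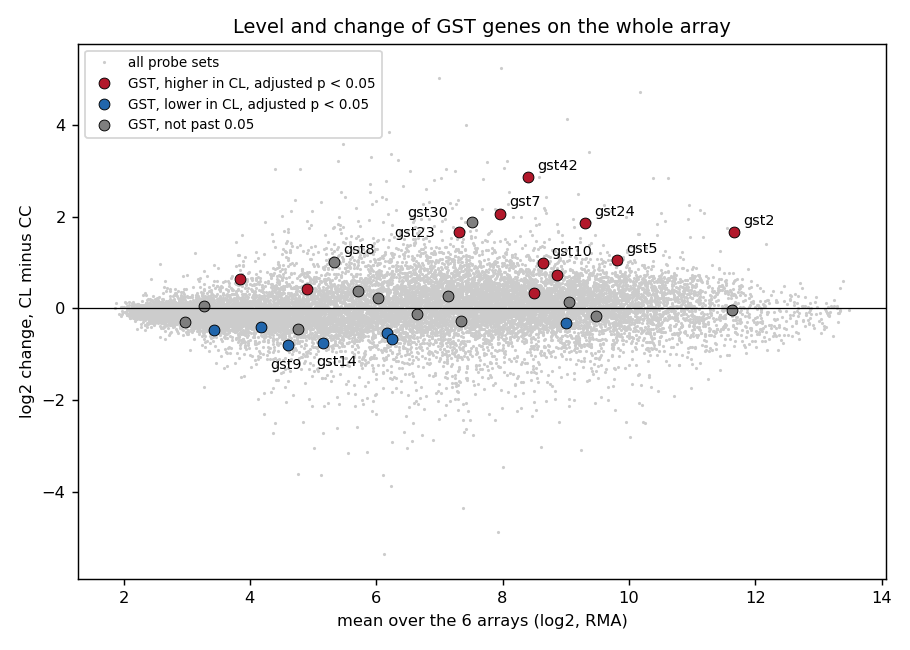
Change (log2, CL minus CC) against the mean over the 6 arrays (log2, RMA) for all probe sets in light grey and the GST genes in colour, red for called rises, blue for called falls and dark grey for the rest. Red points lie mostly on the right, with gst2 at a mean of 11.66, and 6 of the 7 blue points lie left of the median of 6.34. Of all probe sets, 24.6% rose and 16.8% fell right of that median, and 7.15% rose and 13.6% fell left of it.

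The signal of a probe set depends on its probes as well as on the transcript, so the signals below describe probe sets and rank no genes by expression. In CC the mean signal of the members ran between 3.11 (GST25) and 11.66 (gst1). Of the 17 members whose mean over the 6 arrays was above the median of 6.34 of all probe sets, 9 rose and 1 fell, while of the 14 below it 2 rose and 6 fell. By the same mean, 24.6% of all probe sets above the median rose and 16.8% fell, and below it 7.15% rose and 13.6% fell. That mean contains the CL values and so is lowered by a fall. Split instead by the CC arrays alone at their median of 6.29, a split added after the data were seen, 9 rose and 3 fell of the 19 members above, and 2 rose and 4 fell of the 12 below. The fallers gst13 and GST38 changed sides. By the CC arrays, 22.5% of all probe sets above the median rose and 18.3% fell, and below it 9.24% rose and 12.1% fell. Dim values were also lower in CL as a whole, since the 25th percentile of the CL arrays lay between 3.95 and 3.97, against 4.04 to 4.15 on the CC arrays. The part of this shift in the falls of dim members was not tested. After a further quantile normalization the falls of gst11 (-0.28, adjusted p = 0.0781) and gst12 (-0.34, adjusted p = 0.0883) did not pass, nor did the rise of GST39 (0.25, adjusted p = 0.0707), and the other 5 falls and 10 rises did.

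In the RefSeq gene order, 16 of the 31 members lay in 5 groups of neighbours with at most 9 other protein-coding genes between successive members. Of the 5 groups, 2 held both a called rise and a called fall. The group of gst42, gst32, gst37, GST39, GST38 and gst30, in this order, held 3 rises, 1 fall and 2 members that did not pass. There gst32 directly follows gst42, yet the log2 change was 2.86 for gst42 and 0.65 for gst32. GST38, which fell by 0.67, sits directly between GST39, with a log2 change of 0.33, and gst30.

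A second group ran gst11, gst12, gst10 and gst31. The adjoining pair gst11 and gst12 changed by -0.41 and -0.47, whereas gst10, separated from gst12 by 1 gene, rose with a log2 change of 0.995. In the pair gst28 and gst7 the log2 changes were -0.12, which did not pass, and 2.07. The pair gst13 and gst9 fell together, with log2 changes of -0.53 and -0.80, and in the pair GST25 and gst35 the changes were -0.28, which did not pass, and 0.43. Each change was tested against 0, and differences between neighbours were not tested. Whether probes of one copy also read a similar neighbour was not tested either.

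**Figure D4:**
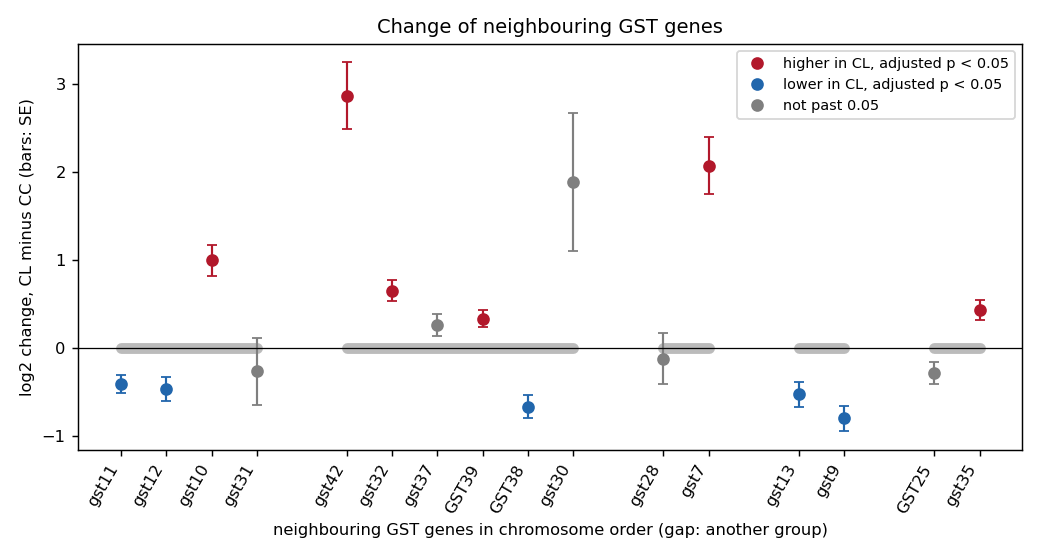
Log2 change (CL minus CC, bars are the standard error) of the 16 GST genes that lie in 5 groups of neighbours, drawn in gene order with a gap between groups; red points were called higher in CL, blue lower and grey neither. Red and blue points both occur in the groups of 4 and of 6 genes, and gst42 and GST38 stand at 2.86 and -0.67 in the same group.

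Of 4 named genes for glutathione synthesis and redox, 3 rose and 0 fell, where 18.7% of all named genes rose and 19.9% fell; with so few genes no share was read from the count. For gsh1 (NCBI gene 542026), glutamate-cysteine ligase, the first enzyme of glutathione synthesis, the CL arrays read 8.99, 8.33 and 8.46, against 7.78, 7.67 and 7.49 in CC. The log2 change was 0.95 (SE 0.18, limma adjusted p = 0.0104), and the call held without any single array. Glutathione synthetase, the second enzyme (gsh2, NCBI gene 542055), read 8.26, 8.26 and 8.38 in CL, against 8.03, 7.81 and 7.86 in CC, with a log2 change of 0.40 (SE 0.09, adjusted p = 0.0195). The glutathione reductase gene gor1 (NCBI gene 541986) rose with a log2 change of 0.33 (SE 0.09, adjusted p = 0.0291). The call of gsh2 was lost without CL replicate 3, CC replicate 2 or CC replicate 3, and that of gor1 without these or CL replicate 2. The glyoxalase I gene glx1, whose enzyme uses glutathione to remove methylglyoxal, changed by 0.19 (interval -0.02 to 0.40) and did not pass.

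Of 3 genes for MRP-type transporters, the class that carries glutathione conjugates into the vacuole, 2 rose and 0 fell, beside the same 18.7% and 19.9% of named genes. The transporter gene mrpa1 (NCBI gene 100037760) read 8.99, 8.46 and 8.76 in CL, against 6.37, 5.67 and 5.21 in CC. Its log2 change was 2.99 (SE 0.29, limma adjusted p = 0.002), beside 2.86 (SE 0.38) for gst42, and it held without any single array. The gene lpa1, an MRP-type transporter known for its part in seed phytic acid, rose with a log2 change of 0.55 (SE 0.13, adjusted p = 0.0184), a call lost without CL replicate 2, CC replicate 2 or CC replicate 3. MRP2 changed by -0.03 (SE 0.19) and did not pass.

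**Figure D5:**
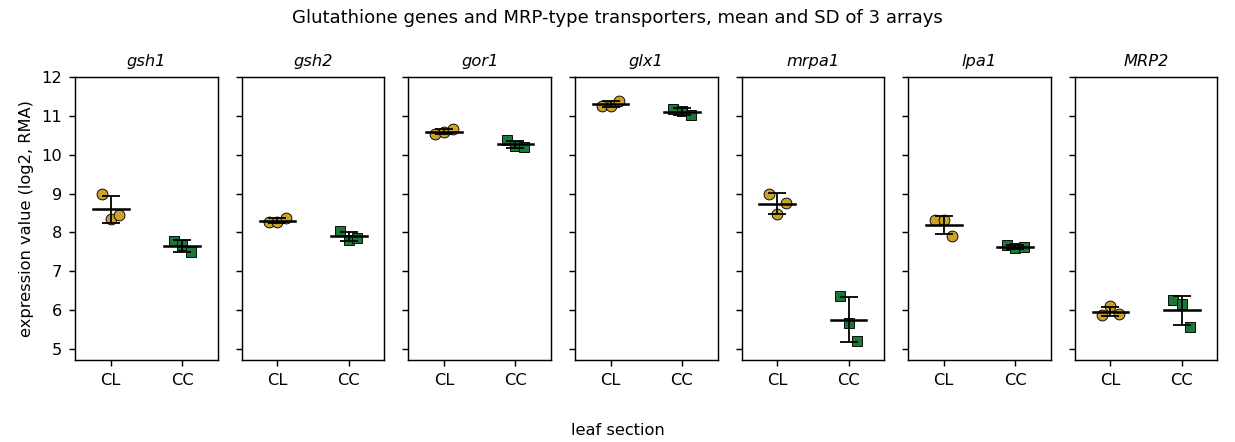
Values (log2, RMA) of 4 glutathione genes and 3 MRP-type transporter genes on each CL array (circles) and CC array (squares), with the mean and SD of 3 arrays. All circles lie above all squares for every gene but MRP2, by the widest margin for mrpa1. All CL arrays also lay above all CC arrays in 23.7% of named genes and 22.9% of all probe sets. Among the genes shown without overlap, glx1 was not called.

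Of 13 genes that act on peroxide and superoxide, 2 (15.4%) rose and 1 (7.69%) fell, not above the 18.7% and 19.9% of named genes. The rises were those of the catalase gene CAT3 with a log2 change of 0.67 and the superoxide dismutase gene Sod4A with 0.36. The fall was that of the peroxidase gene PER2 (-0.98), and each of the 3 calls was lost without at least 4 of the single arrays. The bright probe set of the catalase gene cat1 changed by 0.26 (adjusted p = 0.0789) and another of its probe sets by 0.86 (adjusted p = 0.00916).

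Oxo-phytodienoate reductases of the opr1 type, which reduce reactive carbonyl compounds, are often induced along with GSTs in plants. Of 5 genes with an opr name, which were not sorted by type, 1 rose and 1 fell (20% each), beside 18.7% and 19.9% of named genes. The values of opr1 were 8.76, 7.52 and 7.36 in CL, against 5.64, 5.69 and 5.48 in CC, a log2 change of 2.27 (SE 0.35, limma adjusted p = 0.00547). The fall was that of opr7 (-0.46, adjusted p = 0.0236), lost without 4 of the single arrays.

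The anthocyanin pathway of maize ends with the GST encoded by bz2, which is not analysed here. Of 5 other genes matched to the pathway by symbol, 2 rose and 2 fell, beside 18.7% and 19.9% of named genes. The flavanone hydroxylase gene fht1 fell by 1.86 on the log2 scale (SE 0.19). A rise was called for the anthocyanidin synthase gene a2, with a log2 change of 0.59 (SE 0.12, lost without CC replicate 2). The other rise, of 0.77 (SE 0.15), was that of a gene matched by its symbol chs1. That gene also bears the name minE, so its place in the pathway was not established. The regulator gene c1 was called in opposite directions by its probe sets, at -0.58 for the brighter, which is the one counted, and 1.60 for the dimmer, and the fall was lost without 5 of the single arrays.

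Cytochrome P450 enzymes precede GSTs in the detoxification of many herbicides. Of 5 genes matched by symbol, only CYP88A1 and HPL are P450 genes by name, and the other 3 matched by symbol alone. Of CYP88A1 and HPL, 0 rose and 1 fell, beside 18.7% and 19.9% of named genes. The fall was that of the gibberellin synthesis gene CYP88A1 (-0.81, limma adjusted p = 0.0232), lost without 4 of the single arrays. HPL changed by -0.59 and did not pass (limma adjusted p = 0.323). The single sugar transferase gene found, ciszog1, changed by 0.52 (SE 0.40) and did not pass.

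The tissue was checked against leaf markers. Of 3 mesophyll genes 1 rose and 0 fell, the rise being that of ppt1 (0.75, limma adjusted p = 0.00645). Of 3 bundle sheath genes 0 rose and 1 fell, the fall being that of rca1 (-0.32, limma adjusted p = 0.0294). Both kinds also held bright genes that did not pass. The phosphoenolpyruvate carboxylase gene pep1 averaged 13.27 in CL and 13.22 in CC, and the NADP-malic enzyme gene me3 13.17 in CL and 13.14 in CC. The 6 markers of dividing or growing cells went both ways. The cell cycle genes cycD2 (0.73) and cdc2 (0.39) rose, whereas the growth genes expa1 (-2.71), CesA-2 (-2.32) and tub3 (-1.68) fell and cycD1 (-0.50) did not pass. Their summed level (log2 of the summed linear values), which the brighter probe sets dominate, lay between 9.35 and 9.52 in CL, against 10.34 to 10.60 in CC. Of 3 senescence markers, 0 rose and 1 fell, of 3 epidermal and wax markers 0 rose and 2 fell, and of 3 vascular markers 0 rose and 1 fell. Among all named genes 18.7% rose and 19.9% fell. The part of these markers in the GST changes was not tested.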

How the data were processed

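Total RNA of 6 leaf samples, 3 of CL and 3 of CC, was labelled with biotin from the 3′ end and read on single-colour arrays, per the labels' protocols. The deposited values are log2 expression values, 1 column per array. Per the submitters' processing notes, the tools were limma, RMA and the Affymetrix Expression Console (versions not given in the sources used here). In RMA, background is subtracted. The method then equalizes the arrays' distributions and gives 1 value per probe set. No detection call was used, so no member was tested against background. Precision is limited by the number of arrays. All 17555 probe sets of the 6 arrays were used, with 0 missing values and 0 unused columns of samples.

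Probe sets were named through the platform's older annotation and RefSeq gene IDs: 1452 had 1 gene and 1 had several genes, from which none was named; the rest are unnamed here. The RefSeq table held 1060 of the 1108 genes. Its assembly, Zm-B73-REFERENCE-NAM-5.0, was used for names and gene order only.

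The test was limma 3.58.1 in R 4.3.3 (linear model and empirical Bayes, two-sided, CL minus CC, no block, no filter), with Benjamini-Hochberg adjustment over all probe sets and a threshold of 0.05; the fit was tested on simulated data. SE and 95% intervals are moderated, and n is 3 per section. An exact permutation test of 3 against 3 arrays cannot give a p under 0.1. The labels call the replicates biological but do not say which plants they came from. The SD of the log2 difference between 2 arrays of a section was 0.251 to 0.387 over probe sets and the arrays were treated as separate samples.

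Members and lists were chosen with earlier results of these data known. Members given in full were those called with at least 2-fold change, the 6 largest called falls, those with the smallest adjusted p, the highest and lowest mean, and the 3 largest SDs, plus any whose probe sets disagreed, which none did; gst10, gst18, gst1, GST3 and others were added after their values were seen. From each list up to 3 called genes are named, or the one with the smallest p where none passed; glx1, MRP2, HPL, cat1 and c1 are additions. Lists were matched by symbol, and genes matched by symbol alone were left out from their names: 3 in the P450 list and, in the mesophyll list, a kinase. The gene with the names chs1 and minE was kept in the anthocyanin list. The limit of 20 genes for neighbours was also set later. The closing section gives the effect of the alternatives.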

Additional observations from a re-analysis of the deposited data

How the results depend on the processing

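In the fit that took the replicate number as a replicate block, 7 GST members were called higher and 2 lower, list genes gave 4 and 1, and all probe sets 1020 and 850. The labels do not say that same-numbered arrays share a plant, so the main fit had no block. Deviations of same-numbered CL and CC arrays from their section means correlated at -0.54, -0.35 and -0.39 over probe sets. No sample correlated best with its own number. As the means are of only 3 arrays, these values cannot decide whether the numbers mark pairs. At an adjusted p of 0.01, 8 members were higher and 1 lower, list genes gave 2 and 1, and all probe sets 1126 and 867. With array weights 4388 probe sets were higher and 4940 lower, and 15 and 9 members. Without the dimmest 50% of probe sets, 1 member, 1 list gene and 1656 probe sets were lower and the members' median change was 0.73; there the 14 dim members had been left out. With 1 array left out, the counts ran from 8 to 10 members higher and 2 to 7 lower, 4 to 10 and 1 to 5 list genes, and 1308 to 2818 and 1082 to 2865 probe sets. The 2-fold rises numbered 5 to 7 and the 2-fold falls 0 in every fit. The intensity trend, robust variance, median centring, quantile normalization, the mean of probe sets, adjustment over the named genes and leaving out the dimmest 25% kept the members' counts within 1.5 times, with 10 or 11 rises and 5 to 7 falls. No called member changed direction, and 8 of the 18 (gst42, gst7, gst24, gst23, gst2, gst18, gst32 and gst9) passed in every fit that held them (the fit without the dimmest 50% held neither gst32 nor gst9, and that without the dimmest 25% not gst32). GST39 did not pass after median centring (adjusted p = 0.0701) or quantile normalization (0.0707). Median centring gave 2392 rises and 3196 falls over all probe sets. Signs turned only in members that had not passed: gst16 to -0.082 with array weights, and with 1 array left out gst16 ran from -0.15 to 0.17, gst28 from -0.39 to 0.093, gst1 from -0.21 to 0.12 and gst31 from -0.63 to 0.074. The cause of these moves was not tested.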
